A study of Mus musculus with 38 samples.

Results

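Dermal papilla cells of wild type mice were compared between postnatal day 56 (P56) and postnatal day 30 (P30), with 2 bulk RNA-seq libraries at each age. Dorsal follicles are in anagen, the growth phase of the hair cycle, at P30 and in telogen, the resting phase, at P56, so the comparison set a resting papilla against a growing one. The 4 libraries are part of 38 from mouse dorsal skin. The other libraries hold bulge stem cells, hair germ cells, melanocytes, myeloid cells and CD45+ cells of wild type mice and of mutant mice, which carry oncogenic *Nras* under the *Tyr* promoter, a promoter of the melanocyte lineage, and develop a hairy nevus. Papilla libraries of those mutant mice, 2 at P30 and 2 at P56, are called nevus papilla here. They entered the same fit, so that all 8 libraries set the spread behind each p-value, and with the 4 wild type libraries alone 2337 genes were called, not 2683. Their own age effect is compared with that of wild type mice and averaged with it. The study's methods describe RNA of sorted cells from biological replicates, but the labels do not tie the 2 libraries of a group to separate mice, so p-values measure the spread between these libraries, which may be technical. The gate that set papilla cells apart in the sort is not stated in the sources used here.

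Genes were kept if they were protein coding, reached 1 FPKM (fragments per kilobase of transcript, scaled to the fragments of the library) in at least 2 of the 4 libraries, and did not lie on chromosome X or Y. That left 12155 of the 21417 genes in the papilla table, of which 16843 are protein coding. A gene was called where limma on log2(FPKM + 1) gave a Benjamini-Hochberg adjusted p under 0.05 and the fold change on that scale reached 2. All log2 changes are P56 minus P30 on that scale, which understates the change of genes at low FPKM, and FPKM values carry no read depth.

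The dermal papilla is a cluster of specialised fibroblasts at the base of the hair follicle. In anagen it sits inside the hair bulb, encased by dividing matrix keratinocytes that build the hair shaft, and sends them WNT, R-spondin, FGF and BMP-modulating signals. In telogen it rests as a small ball under the hair germ, next to the bulge stem cells. The dermal sheath is a contractile sleeve of mesenchyme around the follicle.

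Of the 12155 genes tested, 2683 were called (22.1%), 1328 of them higher at P56 (10.9%) and 1355 lower (11.1%). List counts below stand against these shares, and a count near them is no result about its list. Genes near 0 at 1 age passed the filter through the other age and could change in 1 direction only. The libraries of the 2 ages did not overlap for 8324 genes (68.5%). The median log2 change over all genes was -0.09. Across genes, the correlation of log2 values was 0.972 between the P30 libraries, 0.952 between the P56 libraries and 0.800 to 0.871 between ages. P56 replicate 1 lay farther from the P30 libraries than P56 replicate 2 did. It was the lower of the 2 P56 libraries for 74.1% of the genes called lower and the higher of the 2 for 72.1% of those called higher. Without it, 2067 genes were called and 1876 of these were among the 2683.

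Sex ran with age in these libraries. The X-inactivation transcript *Xist* was listed at 0 in both P30 libraries and at 22.4 and 22.7 FPKM in the P56 libraries, while the Y-linked *Ddx3y* was at 31.2 and 46.3 FPKM at P30 and at 0 in both P56 libraries. Age and sex therefore cannot be told apart within the wild type papilla. In the nevus papilla the order was opposite, with *Xist* at 20.4 and 23.9 FPKM at P30 and at 0.02 and 0 at P56. An age effect averaged over both genotypes, in which each age holds 2 libraries of each sex, called 1245 genes (10.2%), 853 of them higher (7.02%) and 392 lower (3.23%). Among these were 743 of the 1328 genes called higher in wild type mice and 347 of the 1355 called lower, and 3 of the 1355 were called the opposite way. In mutant skin the study saw growing follicles at every age examined, P56 included. The average therefore does not set resting against growing follicles in both genotypes. For calls lost in it, sex and hair cycle state cannot be told apart.

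**Figure D1:**
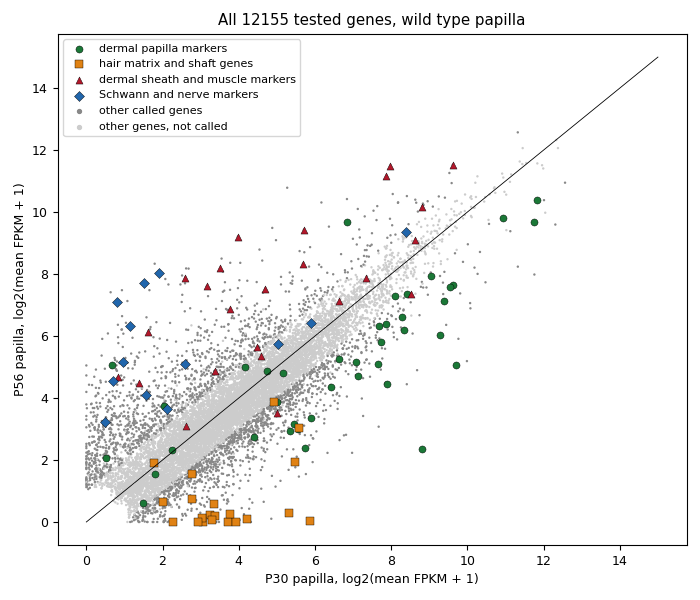
Mean level of each tested gene in the 2 P30 libraries (x axis) and the 2 P56 libraries (y axis), both as log2(mean FPKM + 1), with the line of equal level. Papilla markers (green circles) and hair matrix and shaft genes (orange squares) lie mostly below the line, and dermal sheath and muscle markers (red triangles) and Schwann and nerve markers (blue diamonds) mostly above it.

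All 40 genes of a dermal papilla marker list were tested, and 27 were lower at P56, 4 were higher and 9 were not called, with a median log2 change of -2.07. As a check of the label, 34 of the 40 markers reached 5 FPKM in each P30 library, and 29 and 36 did so in the P56 libraries. For each of the 27 lower markers both P56 libraries lay below both P30 libraries, and P56 replicate 1 lay below P56 replicate 2. Without P56 replicate 1 the counts were 21 lower and 4 higher and the median was -1.04. Over both genotypes averaged, 21 were lower and 2 were higher. The summed level of the 40 markers was 16199 and 17680.1 FPKM at P30 and 3419 and 8226 FPKM at P56.

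*Corin* was at 332 and 570.1 FPKM at P30 and at 1.3 and 6.86 FPKM at P56, the largest fall of any gene named (log2 change -6.68 ± 0.48 SE, adjusted p = 4.00e-05). *Corin* encodes a serine protease of the papilla cell surface that limits agouti signalling to melanocytes. *Edn3* was at 762 and 898 FPKM at P30 and at 27.9 and 37.4 FPKM at P56, again with no overlap (log2 change -4.64 ± 0.20 SE, adjusted p = 5.11e-06). *Edn3*, endothelin 3, is a ligand for melanocytes. The *Wif1* transcript, which encodes a secreted WNT inhibitor, was at 3014 and 3870.2 FPKM at P30 and 51.6 and 1598 FPKM at P56 (log2 change -3.56 ± 1.15 SE, adjusted p = 0.0413). P56 replicate 1 was far below the other 3 libraries, and without it the *Wif1* change was -1.10 (adjusted p = 0.0262). Without P30 replicate 1 or P30 replicate 2 *Wif1* was no longer called (adjusted p = 0.11 and 0.146).

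Other classic markers were less uniform. *Vcan*, the versican proteoglycan, was at 344 and 272 FPKM at P30 and 25.6 and 169 FPKM at P56 (log2 change -2.19 ± 0.65 SE, adjusted p = 0.0303). *Alpl*, the alkaline phosphatase used to stain papillae, was at 401 and 279 FPKM at P30 and 27.6 and 298 FPKM at P56, and P56 replicate 2 lay within the P30 range (log2 change -1.86 ± 0.80 SE, adjusted p = 0.105). Its change was -0.17 (adjusted p = 0.689) without P56 replicate 1 and -3.55 (adjusted p = 3.24e-05) without P56 replicate 2, so it rested on P56 replicate 1. *Vcan* was no longer called without P56 replicate 1 (log2 change -0.85, adjusted p = 0.0606), P30 replicate 1 (adjusted p = 0.123) or P30 replicate 2 (adjusted p = 0.0847). *Sox2*, a transcription factor of the papillae of some hair types, was low, at 3.83 and 3.59 FPKM at P30 and 4.64 and 3.36 FPKM at P56 (log2 change 0.07 ± 0.34 SE, adjusted p = 0.891). Of the 4 markers that were higher, *Igfbp3*, an IGF-binding protein, was the most abundant at 149 and 77.5 FPKM at P30 and 895 and 748 FPKM at P56 (log2 change 2.92 ± 0.28 SE, adjusted p = 0.000131), and the other 3 were *Ccl19*, *Prom1* and *Foxd1*.

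**Figure D2:**
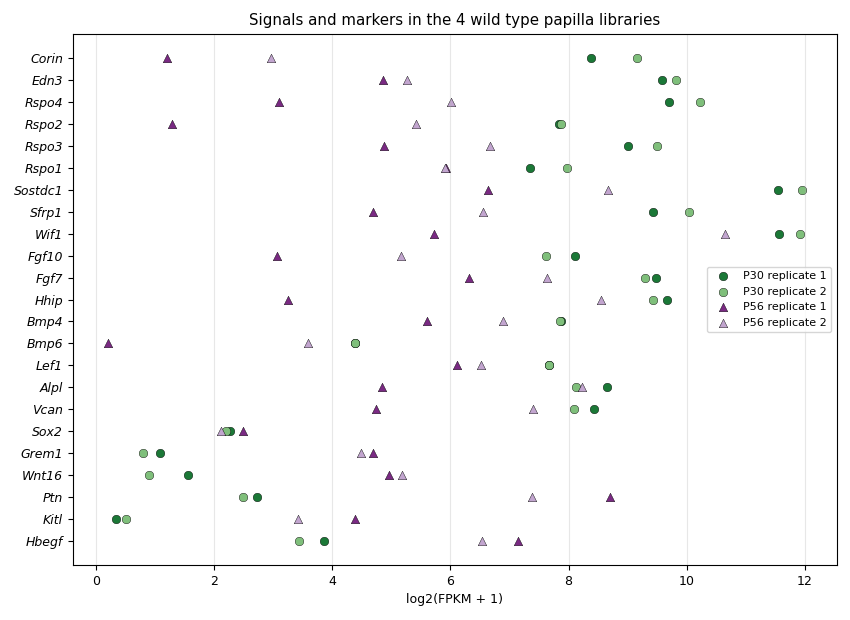
Level of 23 genes as log2(FPKM + 1) in each of the 4 wild type papilla libraries, green circles for P30 and purple triangles for P56. P56 replicate 1 (dark triangles) lies farthest left for most papilla signals, from *Corin* to *Vcan*, and the 5 genes at the bottom, from *Grem1* to *Hbegf*, lie to the right at P56 in both libraries.

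R-spondins are secreted proteins that amplify WNT signalling through LGR receptors, and all 4 fell. Of 8 genes tested for R-spondins and their receptors, 5 were lower and 2 were higher (median -1.42). *Rspo4* was at 833 and 1195 FPKM at P30 and at 7.56 and 63.5 FPKM at P56 (log2 change -5.41 ± 0.73 SE, adjusted p = 0.000746). For *Rspo2* the libraries read 228 and 233 FPKM at P30 and 1.45 and 41.7 FPKM at P56 (log2 change -4.50 ± 0.96 SE, adjusted p = 0.00717), and for *Rspo3* they read 515 and 719 FPKM at P30 and 28.4 and 101 FPKM at P56 (log2 change -3.48 ± 0.46 SE, adjusted p = 0.000712). *Rspo1* was at 162 and 249 FPKM in the growing papilla and 59.9 and 59.3 FPKM in the resting one (log2 change -1.74 ± 0.34 SE, adjusted p = 0.0051). All 4 R-spondins lay below the P30 range in both P56 libraries. Without P56 replicate 1 the changes of *Rspo4*, *Rspo2* and *Rspo3* were -3.95, -2.44 and -2.58, and all 3 were still called. Of the receptors, *Lgr4* fell (log2 change -1.11 ± 0.36 SE, adjusted p = 0.0414), a call lost without P56 replicate 1 (log2 change -0.49, adjusted p = 0.244), P30 replicate 1 (adjusted p = 0.103) or P30 replicate 2 (adjusted p = 0.163), whereas the low *Lgr5* (0.54 and 0.42 FPKM at P30 and 2.94 and 3.66 FPKM at P56) and *Lgr6* (1.39 and 0.63 FPKM at P30 and 11.5 and 7.87 FPKM at P56) rose.

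Among 8 WNT ligands 3 rose and 1 fell (median -0.09). *Wnt5a*, a ligand of the non-canonical branch, was at 122 and 95.6 FPKM at P30 and 7.41 and 61.9 FPKM at P56 (log2 change -2.24 ± 0.69 SE, adjusted p = 0.0346). It was not called without P56 replicate 1 (log2 change -0.79), P30 replicate 1 (adjusted p = 0.135) or P30 replicate 2 (adjusted p = 0.0935), so that 0 ligands were lower without P56 replicate 1. *Wnt16* was the largest rise, from 1.94 and 0.88 FPKM to 30.2 and 35.2 FPKM (log2 change 3.84 ± 0.29 SE, adjusted p = 4.54e-05), and *Wnt6* and *Wnt10a* also rose, by 1.80 and 1.95 on the log2 scale. WNT antagonists were lower in 6 of 14 cases and higher in 3 (median -0.74). *Sostdc1* was at 2985 and 3939 FPKM at P30 and at 98.6 and 406 FPKM at P56 (log2 change -4.09 ± 0.53 SE, adjusted p = 0.000614). *Sostdc1* encodes an inhibitor of both WNT and BMP signals. *Sfrp1* fell from 685 and 1052 FPKM to 24.9 and 93.3 FPKM (log2 change -4.10 ± 0.48 SE, adjusted p = 0.000365). The rising antagonists were *Shisa2*, *Sfrp5* and *Dkk3*, of which *Dkk3* was at 77.5 and 83.96 FPKM at P30 and 269 and 112 FPKM at P56, and without P56 replicate 1 a single antagonist was higher and 6 were lower. The *Dkk3* call was lost without P56 replicate 1 (log2 change 0.47, adjusted p = 0.211), P30 replicate 1 (adjusted p = 0.14) or P30 replicate 2 (adjusted p = 0.11).

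WNT target genes and effectors were split, with 5 of 18 lower and 3 higher (median -0.35). *Lef1*, a transcription factor of the pathway, fell from 203 and 203 FPKM to 68.1 and 91.01 FPKM (log2 change -1.36 ± 0.24 SE, adjusted p = 0.00317). *Axin2*, a feedback inhibitor and standard target, fell from 13.4 and 12.4 to 2.66 and 3.18 FPKM (log2 change -1.83 ± 0.25 SE, adjusted p = 0.000801). The 3 that rose were *Myc*, *Wisp2* and *Tcf7*. Of 12 WNT receptors 3 fell, led by *Fzd1* at 194 and 203 FPKM at P30 and 56.1 and 58.3 FPKM at P56 (log2 change -1.78 ± 0.17 SE, adjusted p = 0.000135), and 2 rose, *Ror1* and *Fzd9*. In the age effect averaged over both genotypes 0 of the 18 targets and effectors were lower and 3 were higher by limma. Of the 12 receptors 0 were lower and 1 was higher, and of the 14 antagonists 2 were lower and 2 were higher. That average called 3.23% of all genes lower and 7.02% higher. The averaged changes of *Lef1*, *Axin2* and *Fzd1* were -0.56, -0.68 and -0.61 (adjusted p = 0.0392, 0.0211 and 0.00666), short of the fold threshold.

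BMP signals hold follicle stem cells at rest and shape the differentiating shaft. Of 11 BMP target genes, 7 were lower and 0 were higher (median -1.63), and the same count held without P56 replicate 1. *Id1* was at 352 and 402 FPKM at P30 and at 83.7 and 49.6 FPKM at P56 (log2 change -2.53 ± 0.31 SE, adjusted p = 0.000454). *Id3*, like *Id1* an inhibitor of basic helix-loop-helix factors, was at 2012 and 2457 FPKM at P30 and 598 and 734 FPKM at P56 (log2 change -1.75 ± 0.21 SE, adjusted p = 0.000473). *Msx2*, *Msx1*, *Hey1*, *Smad6* and *Atoh8* also fell, by 1.16 to 2.56 on the log2 scale, and *Id2* fell short of the fold threshold (log2 change -0.99, adjusted p = 0.00477). *Msx2* and *Gata3* are also listed among the hair matrix and shaft genes, and *Hey1* among the papilla markers and the NOTCH genes. In the averaged age effect 3 of the 11 were lower.

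Of 8 BMP ligands 4 were lower and 1 was higher (median -1.11), or 2 and 1 without P56 replicate 1 and 2 and 0 in the averaged age effect. *Bmp4* was at 234 and 229.6 FPKM at P30 and 47.8 and 118 FPKM at P56 (log2 change -1.61 ± 0.34 SE, adjusted p = 0.00718), and without P56 replicate 1 its change of -0.97 missed the fold threshold. *Bmp6* was at 19.9 and 19.98 FPKM at P30 and 0.15 and 11.1 FPKM at P56 (log2 change -2.49 ± 0.81 SE, adjusted p = 0.0424) and lost its call without that library (log2 change -0.79, adjusted p = 0.0834), as well as without P30 replicate 1 or P30 replicate 2 (adjusted p = 0.129 and 0.132). *Gdf10* and *Bmp3* fell as well, by 2.44 and 2.30 on the log2 scale. *Bmp7*, at 66.8 and 69.3 FPKM at P30 and 83.5 and 101 FPKM at P56, was not called. Antagonists were lower in 4 of 13 cases and higher in 1. The one that rose was *Grem1*, at 1.12 and 0.75 FPKM at P30 and 24.8 and 21.3 FPKM at P56 (log2 change 3.64 ± 0.26 SE, adjusted p = 3.79e-05). *Nog*, noggin, was at 28 and 34.2 FPKM at P30 and 1.76 and 25.4 FPKM at P56. It passed the fold threshold but was not called by limma (log2 change -1.90 ± 0.79 SE, adjusted p = 0.0961). The P56 libraries were far apart, and the *Nog* change was -0.28 without P56 replicate 1 and -3.53 without P56 replicate 2. Of 8 BMP receptors and SMAD proteins 0 were called by limma and 1 had an unadjusted p under 0.05. The most abundant of them, *Smad5*, was at 14.8 and 10.3 FPKM at P30 and 19.01 and 14.1 FPKM at P56.

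FGF ligands of the papilla act on the overlying epithelium. Among 7 tested, 2 were lower and 1 was higher (median -0.74). *Fgf7* was at 711 and 623 FPKM at P30 and at 78.5 and 198 FPKM at P56 (log2 change -2.41 ± 0.37 SE, adjusted p = 0.00143), and *Fgf10* was at 274 and 196 FPKM at P30 and at 7.43 and 34.7 FPKM at P56 (log2 change -3.75 ± 0.52 SE, adjusted p = 0.000881). Both encode ligands of the epithelial form of FGFR2, and without P56 replicate 1 their changes were -1.75 and -2.71, still called. Among 13 FGF receptors and feedback genes, 6 were lower and 0 were higher (median -0.36). *Spry1*, an inhibitor induced by FGF signals, fell from 95 and 138 FPKM to 29.2 and 23.4 FPKM (log2 change -2.09 ± 0.24 SE, adjusted p = 0.000353), and the others were *Etv4*, *Fgfr3*, *Spry4*, *Etv5* and *Fgfrl1*. Without P56 replicate 1, 2 of the 13 were lower, and 2 were lower in the averaged age effect.

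For Hedgehog genes, 6 of 16 were lower and 1 was higher (median -0.74), and without P56 replicate 1 the lower ones numbered 3. *Hhip*, a decoy receptor and target of the pathway, was at 810.1 and 688 FPKM at P30 and 8.58 and 374 FPKM at P56 (log2 change -3.64 ± 1.22 SE, adjusted p = 0.0475), and without P56 replicate 1 its change fell just short of the fold threshold (adjusted p = 0.0184). Without P30 replicate 1 or P30 replicate 2 *Hhip* was not called either (adjusted p = 0.151 and 0.131). *Smo*, the signal transducer, fell from 33.7 and 33.02 FPKM to 13.4 and 18.3 FPKM (log2 change -1.04 ± 0.23 SE, adjusted p = 0.00809). *Ptch1* (30 and 21.7 FPKM at P30 and 4.79 and 25.4 FPKM at P56) and *Gli1* (19.4 and 8.91 FPKM at P30 and 5.9 and 13.2 FPKM at P56), both direct targets, were not called (adjusted p = 0.155 and 0.342), with the lower P56 value in replicate 1 for each. The *Ptch1* change was -0.0077 (adjusted p = 0.989) without P56 replicate 1 and -2.20 (adjusted p = 0.000526) without P56 replicate 2. The *Smo* call was lost without P56 replicate 1 (log2 change -0.83, adjusted p = 0.0546). The rise belonged to *Dhh*, desert hedgehog, at 1.19 and 0.36 FPKM at P30 and 113 and 49.5 FPKM at P56 (log2 change 5.46 ± 0.42 SE, adjusted p = 4.99e-05), a ligand made by Schwann cells.

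Of 21 TGF-beta and activin genes 5 were lower and 4 were higher (median -0.22), or 1 lower and 4 higher in the averaged age effect. *Inhba*, a subunit of activin A, fell from 815 and 1648 FPKM to 122 and 389.5 FPKM (log2 change -2.40 ± 0.49 SE, adjusted p = 0.0056), and *Inha*, *Inhbb*, *Ltbp1* and *Tgfb3* fell too. *Ltbp4* rose from 16.3 and 11.1 FPKM to 113 and 75.3 FPKM (log2 change 2.69 ± 0.30 SE, adjusted p = 0.000306). Among 15 NOTCH genes 4 were lower and 2 were higher (median 0.16). The falls were led by *Hey2*, a transcriptional repressor, at 56.7 and 48.2 FPKM at P30 and 1.54 and 6.93 FPKM at P56 (log2 change -3.57 ± 0.42 SE, adjusted p = 0.000386), and the rises were the receptor *Notch1* and the ligand *Dll1*.

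IGF genes had 3 of 17 lower and 2 higher (median -0.03), against 11.1% and 10.9% of all genes. *Igfbp4* fell by 2.21 and *Igfbp6* rose by 3.25 on the log2 scale, and *Igf1* itself was at 50.7 and 94.4 FPKM at P30 and 107 and 60.2 FPKM at P56 (log2 change 0.21 ± 0.36 SE, adjusted p = 0.687).

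Of 35 other secreted growth factors tested, 16 were higher, 2 were lower and 17 were not called (median 0.83). *Ptn* was at 5.67 and 4.61 FPKM at P30 and at 414 and 165 FPKM at P56, the largest rise of this list (log2 change 5.42 ± 0.46 SE, adjusted p = 8.12e-05). *Ptn* encodes pleiotrophin, a heparin-binding growth factor. *Kitl*, the stem cell factor that binds KIT on melanocytes, rose from 0.27 and 0.42 FPKM to 19.99 and 9.74 FPKM (log2 change 3.48 ± 0.38 SE, adjusted p = 0.000257). *Gdnf*, *Artn*, *Nrtn* and *Ntf3*, which support neurons, rose by 1.85 to 2.87. *Hbegf*, a ligand of the EGF receptor, was at 13.6 and 9.8 FPKM at P30 and 141 and 91.2 FPKM at P56 (log2 change 3.19 ± 0.29 SE, adjusted p = 9.70e-05). The lower ones were *Edn3* and *Vegfc*. *Spp1*, osteopontin, rose from 17 and 17.2 FPKM to 50.3 and 66.8 FPKM (log2 change 1.70 ± 0.20 SE, adjusted p = 0.000352), and in the nevus papilla it was at 110.0 and 123 FPKM at P30 and 539 and 611 FPKM at P56.

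**Figure D3:**
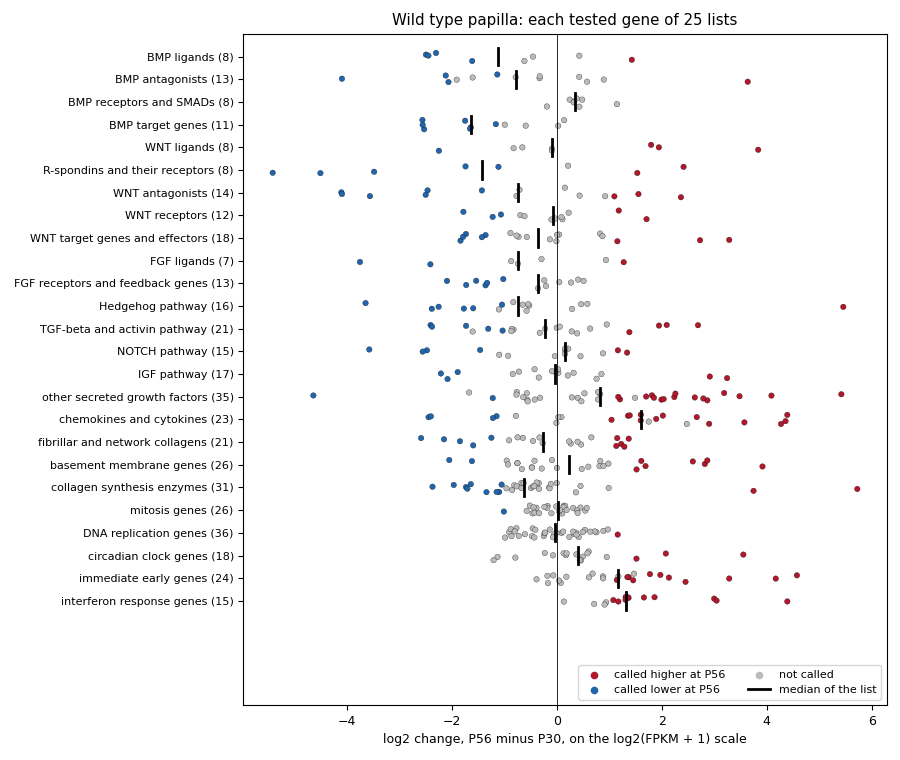
Log2 change from P30 to P56 of each tested gene, 1 point per gene, in the signalling, matrix and cell state lists, with the number of genes in brackets and the list median as a black bar. Red and blue points were called higher and lower. BMP targets, R-spondins and FGF feedback genes have only grey and blue points apart from the 2 rising LGR receptors, and immediate early and interferon genes only grey and red ones.

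Matrix genes moved in both directions. Of 21 fibrillar and network collagens 5 were higher and 5 were lower (median -0.27). *Col6a2* rose from 168 and 112 FPKM to 389.9 and 325 FPKM (log2 change 1.37 ± 0.26 SE, adjusted p = 0.00398), with *Col6a1* and *Col1a1* beside it. *Col26a1*, *Col8a2*, *Col11a1*, *Col23a1* and *Col24a1* were the 5 that fell. *Col3a1* and *Col1a2*, among the most abundant, were not called. Enzymes and chaperones of collagen synthesis were lower in 9 of 31 cases and higher in 2 (median -0.63). The falls were led by *Loxl3* and *Fkbp14*, and *Serpinh1*, the collagen chaperone, was at 559.8 and 683 FPKM at P30 and 237 and 251 FPKM at P56 (log2 change -1.34 ± 0.23 SE, adjusted p = 0.00281).

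Among 45 proteoglycans and matrix glycoproteins 15 rose and 12 fell (median 0.57). *Has1*, which encodes a hyaluronan synthase, was at 6.27 and 4.57 FPKM at P30 and 333 and 243 FPKM at P56 (log2 change 5.49 ± 0.41 SE, adjusted p = 4.52e-05). *Dcn*, decorin, rose from 99.02 and 128 FPKM to 1322 and 1415 FPKM (log2 change 3.59 ± 0.21 SE, adjusted p = 1.91e-05), and *Lum*, lumican, from 13.8 and 8.17 FPKM to 295 and 242 FPKM (log2 change 4.53 ± 0.28 SE, adjusted p = 2.27e-05). *Tnc*, *Thbs2* and *Efemp1* were also among the risers. *Gpc6*, a glypican, led the falls (65.5 and 84.5 FPKM at P30 and 7.46 and 10.5 FPKM at P56, log2 change -2.93 ± 0.24 SE, adjusted p = 6.99e-05), followed by *Matn4* and *Vcan*. Basement membrane genes were higher in 7 of 26 cases and lower in 2 (median 0.24), led by the integrin ligand *Npnt*, nephronectin, at 3.15 and 1.73 FPKM at P30 and 52.8 and 47.3 FPKM at P56 (log2 change 3.92 ± 0.33 SE, adjusted p = 8.12e-05). Proteases and their inhibitors were divided, 10 of 33 higher and 10 lower (median -0.12). *Serpine2*, a serine protease inhibitor, fell from 6399 and 3742 FPKM to 272 and 1275 FPKM (log2 change -3.05 ± 0.58 SE, adjusted p = 0.00437), and *Adamts4* rose from 18.9 and 11.1 FPKM to 99.1 and 104 FPKM (log2 change 2.73 ± 0.36 SE, adjusted p = 0.00066). Without P56 replicate 1 the calls were 2 higher and 2 lower for collagens, 2 and 6 for collagen synthesis, 13 and 6 for proteoglycans and glycoproteins and 8 and 5 for proteases and inhibitors.

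Markers of other cells around the papilla also differed. Of 24 dermal sheath and muscle markers 17 were higher and 2 were lower (median 2.83), and 17 were higher and 0 lower without P56 replicate 1. *Acta2* was at 287 and 215 FPKM at P30 and at 2977 and 2773 FPKM at P56 (log2 change 3.52 ± 0.28 SE, adjusted p = 5.51e-05). *Acta2* encodes smooth muscle actin, and *Myh11*, smooth muscle myosin heavy chain, was at 9.49 and 0.6 FPKM at P30 and 249 and 221 FPKM at P56 (log2 change 5.85 ± 0.67 SE, adjusted p = 0.000314). *Des*, desmin, was at 27.98 and 1.51 FPKM at P30 and 639 and 542 FPKM at P56 (log2 change 6.11 ± 0.84 SE, adjusted p = 0.000813), and *Cnn1*, calponin, at 19.8 and 1.03 FPKM at P30 and 291 and 288 FPKM at P56 (log2 change 5.48 ± 0.80 SE, adjusted p = 0.00114). For these 4 genes P30 replicate 1 read higher than P30 replicate 2, and both P56 libraries were far above both. The summed level of the 25 listed genes in the table was 3363 and 2673 FPKM at P30 and 13642 and 12899 FPKM at P56. *Col11a1* and *Cnn2* were the 2 that fell.

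Schwann cells wrap nerve fibres and form a lattice around the follicle. Of 13 Schwann and nerve markers 10 were higher and 0 were lower (median 2.70). Members near 0 at P30 passed the filter through the P56 libraries and could hardly fall. This count was therefore partly set by the filter. *Mbp* was at 1.52 and 2.21 FPKM at P30 and at 225 and 189 FPKM at P56 (log2 change 6.19 ± 0.27 SE, adjusted p = 5.11e-06). *Mbp* encodes myelin basic protein. *Sox10*, the transcription factor of the Schwann and melanocyte lineages, was at 1.23 and 0.29 FPKM at P30 and 215 and 55.2 FPKM at P56 (log2 change 6.02 ± 0.55 SE, adjusted p = 0.000102), and the neurotrophin receptor *Ngfr* at 2.02 and 0.42 FPKM at P30 and 116 and 42.6 FPKM at P56 (log2 change 5.11 ± 0.47 SE, adjusted p = 0.000109). The summed level of the 15 genes was 412 and 481 FPKM at P30 and 2399 and 1274 FPKM at P56, where P56 replicate 1 was the higher. *S100b*, *Pmp22* and *Egr2* were not called.

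Dermal fibroblast markers were higher in 13 of 20 cases and lower in 2 (median 2.21), also 13 without P56 replicate 1. *Cd34*, a surface marker of reticular fibroblasts and other cells, rose from 6.73 and 3.25 FPKM to 114 and 106 FPKM (log2 change 4.28 ± 0.29 SE, adjusted p = 3.42e-05), *Dpt*, dermatopontin, from 8.8 and 7.5 FPKM to 146 and 164 FPKM (log2 change 4.09 ± 0.24 SE, adjusted p = 1.91e-05), and *Gsn*, gelsolin, from 232 and 239 FPKM to 2554 and 2003 FPKM (log2 change 3.26 ± 0.22 SE, adjusted p = 3.39e-05). Their summed level was 1466 and 1206 FPKM at P30 and 5419 and 5164 FPKM at P56. The 2 that fell were *Sfrp2* and *Pdgfra*.

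Vessel and blood cell markers were low in sum. Of 10 endothelial markers 6 were higher, among them *Plvap* at 3.31 and 1.73 FPKM at P30 and 27.9 and 32.9 FPKM at P56, with sums of 18.6 and 19.1 FPKM at P30 and 77.4 and 97.7 FPKM at P56 over 19 genes. Endothelial members near 0 at P30 could likewise hardly fall. Mural cell markers were higher in 5 of 9 cases, led by *Mcam* at 8.78 and 5.32 FPKM at P30 and 142 and 77.8 FPKM at P56, and lower in 1, but *Rgs5*, a defining pericyte gene, was at 0.36 and 0.61 FPKM at P30 and 2.04 and 1.52 FPKM at P56. Of 14 macrophage and dendritic markers 0 were higher by limma and 1, *H2-Ab1*, was lower, with sums of 343 and 350 FPKM at P30 and 275 and 245 FPKM at P56. For melanocytes the counts were 2 higher (*Sox10* and *Tyrp1*) and 2 lower of 10. Basal keratinocyte markers were higher in 4 of 20 cases, and *Krt14* was at 42.5 and 26.6 FPKM at P30 and 45.3 and 89.9 FPKM at P56. In bulk libraries fewer cells of a type and less RNA per cell cannot be told apart, and the part of these other cells in the changes of papilla genes was not tested.

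**Figure D4:**
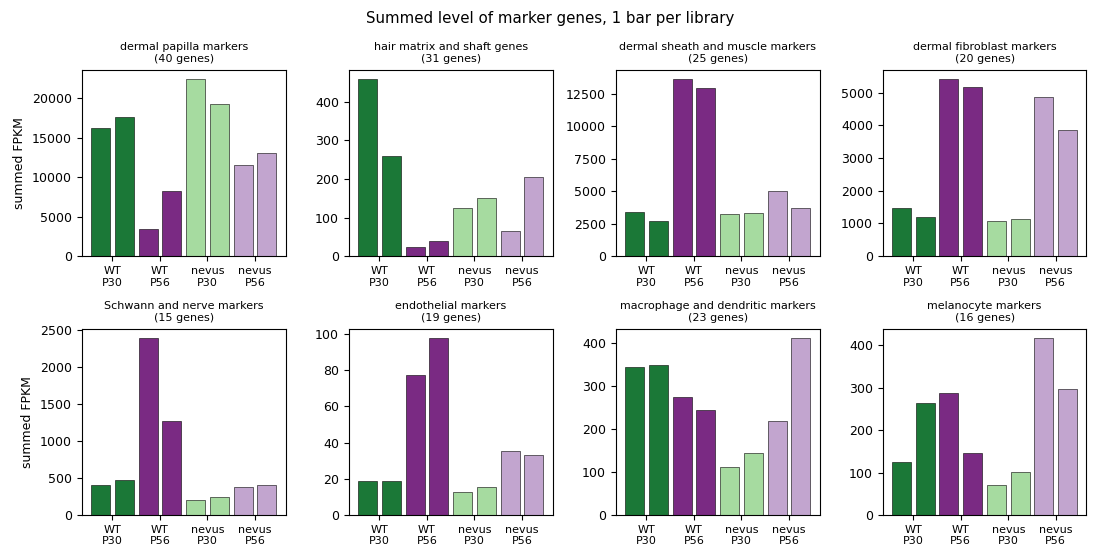
Summed FPKM of 8 marker lists, 1 bar per library, for wild type papilla (dark bars) and nevus papilla (light bars) at P30 (green) and P56 (purple). Sums of papilla markers fall and those of sheath and muscle, Schwann and endothelial markers rise most in the 2 wild type P56 libraries, while fibroblast marker sums are high in all 4 P56 libraries.

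Hair matrix and shaft genes belong to keratinocytes that encase the papilla in anagen. Of 21 hair matrix and shaft genes tested, 20 were lower and 0 were higher, and 11.1% of all genes were called lower. In the averaged age effect 15 were lower. The list median was -2.77, or -2.52 without P56 replicate 1. Members that passed the filter through the P30 libraries alone could fall but not rise, and members low at both ages were not tested. Both counts of lower genes were therefore partly set by the filter. *Krt71*, an inner root sheath keratin, was at 83.04 and 32.1 FPKM at P30 and 0.03 and 0 FPKM at P56 (log2 change -5.70 ± 0.79 SE, adjusted p = 0.000864). *Krtap8-1*, a keratin-associated protein, was at 47.6 and 30.5 FPKM at P30 and 0 and 0.42 FPKM at P56 (log2 change -5.04 ± 0.54 SE, adjusted p = 0.000246), but it belongs to a family of near-identical genes whose reads may be split. *Krt25*, *Krt27*, *Krt73*, *Krt86* and *Krtap3-1* were listed at 0 in both P56 libraries, with *Krt25* at 16.1 and 8.37 FPKM and *Krt27* at 19.2 and 9.02 FPKM at P30. Without P30 replicate 1 the *Krt27* call was lost. So were the calls of *Krt28*, *Krt35*, *Krt73*, *Krt83*, *Tchh*, *Dlx3* and *Selenbp1*, with log2 changes of -0.67 to -2.25 there. *Gata3* was the member not called. The summed level over 31 genes was 459 and 259 FPKM at P30 and 24.4 and 39 FPKM at P56, so P30 replicate 1 held the most.

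RefSeq promoter windows of 300 bases, 250 before and 50 after the gene start (build GRCm38.p6), were found for 14 of the 20 lower genes. CTTTGAAG, a site of LEF1 and TCF factors in hair keratin promoters, was present on either strand in 3 of the 14, against 1.66% of all 32851 windows, and TATAAA in 12 of the 14, against 13.6%. The windows of 2 type I hair keratins that hold CTTTGAAG are shown, and a link between their levels and that of *Lef1* was not tested. *Krt31* was at 13.4 and 5.36 FPKM at P30 and 0 and 0.28 FPKM at P56 and *Krt33b* at 12.2 and 2.17 FPKM at P30 and 0 and 0.19 FPKM at P56. Capitals mark CTTTGAAG.
Krt31 (chr11:100050502-100050801, minus strand): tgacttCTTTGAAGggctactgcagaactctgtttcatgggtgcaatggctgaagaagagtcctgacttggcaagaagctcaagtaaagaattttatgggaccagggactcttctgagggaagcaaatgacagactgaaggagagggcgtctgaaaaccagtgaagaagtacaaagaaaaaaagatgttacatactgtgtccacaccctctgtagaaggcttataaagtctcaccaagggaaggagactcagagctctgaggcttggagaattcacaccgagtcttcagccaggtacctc
Krt33b (chr11:100029819-100030118, minus strand): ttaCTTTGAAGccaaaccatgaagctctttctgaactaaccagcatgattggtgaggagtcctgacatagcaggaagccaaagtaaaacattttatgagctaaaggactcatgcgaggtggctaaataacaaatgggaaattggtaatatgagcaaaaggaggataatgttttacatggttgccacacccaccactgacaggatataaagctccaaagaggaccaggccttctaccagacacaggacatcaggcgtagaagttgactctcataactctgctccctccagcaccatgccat
The motif starts at position -244 from the gene start in *Krt31* and at -247 in *Krt33b*. These matches describe the letters and are no evidence of binding.

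Immediate early genes are those that cells induce within minutes of a stimulus or of handling. Of 24 immediate early genes 11 were higher and 0 were lower (median 1.16), or 9 without P56 replicate 1. *Atf3* was at 30.8 and 26.03 FPKM at P30 and at 881 and 554 FPKM at P56 (log2 change 4.58 ± 0.24 SE, adjusted p = 1.13e-05). *Atf3* encodes a stress-induced transcription factor, and *Fosl1* and *Myc* rose beside it, from 6.8 and 4.42 to 97.1 and 139 FPKM and from 24.3 and 18.04 to 214 and 212 FPKM. The most abundant members, *Fos* (3661 and 2309 FPKM at P30 and 4365 and 1768 FPKM at P56), *Egr1* (2028 and 1987 FPKM at P30 and 2083 and 1135 FPKM at P56) and *Junb* (1794 and 1557 FPKM at P30 and 2009 and 1550.2 FPKM at P56), were not called. Of 15 heat shock genes 0 were called by limma and 3 had an unadjusted p under 0.05, and *Hspa1a* and *Hspa8*, the most abundant, were at 646 and 3511 FPKM at P30 and 957 and 408 FPKM at P56 and at 754 and 1455 FPKM at P30 and 1391 and 1355 FPKM at P56.

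Interferon response genes were higher in 11 of 15 cases and lower in 0 (median 1.31), or 7 without P56 replicate 1. *Cxcl10*, a chemokine that attracts T cells, was at 5.37 and 3.96 FPKM at P30 and 206 and 66.4 FPKM at P56 (log2 change 4.39 ± 0.47 SE, adjusted p = 0.000235). *Ifit3* and *Ifit1*, which act against viral RNA, rose from 1.41 and 0.98 to 20.1 and 14.4 FPKM and from 1.09 and 0.11 to 14.01 and 8.88 FPKM. *Isg15*, a ubiquitin-like protein, was at 4.3 and 3 FPKM at P30 and 19.4 and 9.38 FPKM at P56 (log2 change 1.66 ± 0.33 SE, adjusted p = 0.00549). In each of these 4 genes P56 replicate 1 read higher than P56 replicate 2. *Cxcl9* was listed at 0 in both P30 libraries and could only rise.

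Windows were found for 10 of the 11 risers, and 6 of the 10 hold a core of the interferon response element on either strand (GAAA, any 2 bases, GAAA), against 3.44% of all windows. The windows of *Cxcl10*, *Ifit3* and *Isg15* are shown, the 3 with the highest P56 means among the 4 genes above. Capitals mark the match, which reads TTTC, 2 bases, TTTC where it lies on the other strand, and overlapping matches run together.
Cxcl10 (chr5:92348840-92349139, minus strand): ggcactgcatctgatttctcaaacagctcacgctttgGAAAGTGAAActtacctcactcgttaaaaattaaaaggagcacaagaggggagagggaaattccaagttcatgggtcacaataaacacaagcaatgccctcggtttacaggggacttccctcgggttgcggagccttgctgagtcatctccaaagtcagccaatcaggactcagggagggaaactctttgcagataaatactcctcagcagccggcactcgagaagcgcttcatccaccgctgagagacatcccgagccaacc
Ifit3 (chr19:34583279-34583578, plus strand): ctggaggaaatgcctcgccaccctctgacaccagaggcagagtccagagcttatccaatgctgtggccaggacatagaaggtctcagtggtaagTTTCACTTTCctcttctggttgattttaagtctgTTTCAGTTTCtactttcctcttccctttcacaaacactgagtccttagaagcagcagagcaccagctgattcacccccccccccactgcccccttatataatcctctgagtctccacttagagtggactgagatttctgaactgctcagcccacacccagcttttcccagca
Isg15 (chr4:156200769-156201068, minus strand): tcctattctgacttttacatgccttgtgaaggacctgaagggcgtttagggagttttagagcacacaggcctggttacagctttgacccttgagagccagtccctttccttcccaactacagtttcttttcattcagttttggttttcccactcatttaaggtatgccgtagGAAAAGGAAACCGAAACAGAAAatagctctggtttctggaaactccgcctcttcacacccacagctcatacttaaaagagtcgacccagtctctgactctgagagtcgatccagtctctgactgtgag
*Cxcl10* has 1 match, *Ifit3* has 2 and *Isg15* has 3. In all, 12 motifs were searched on both strands. For clock genes, CACGTG (7.15% of all windows) and TTATGTAA (0.938%) were in 0 of 3 windows and AGGTCA (16.3%) in 1. For immediate early genes, TGANTCA (7.81%) was in 0 of 8 windows and TGACGTCA (1.79%) in 2. ACAANAG (15.2%) was in 1 of 4 windows of Schwann markers, GACCACCCA (0.253%) in 0 of 6 of Hedgehog genes, CTTTGAT (3.73%) in 1 of 4 of WNT targets and the CArG box (1.63%) in 2 of 15 of sheath and muscle markers.

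Chemokines and cytokines were higher in 13 of 23 cases and lower in 4 (median 1.60). *Ccl7*, a monocyte attractant, was at 14.9 and 16.02 FPKM at P30 and 414 and 242 FPKM at P56 (log2 change 4.27 ± 0.45 SE, adjusted p = 0.000217), and *Il6* at 5.77 and 7.44 FPKM at P30 and 67.6 and 45.6 FPKM at P56 (log2 change 2.90 ± 0.29 SE, adjusted p = 0.000151). Against these, *Cxcl14* fell from 692 and 1102 FPKM to 166 and 164 FPKM (log2 change -2.40 ± 0.26 SE, adjusted p = 0.000238), and *Cxcl12* from 70.2 and 77.5 FPKM to 35.9 and 30 FPKM (log2 change -1.15 ± 0.23 SE, adjusted p = 0.00552). Among 24 hormone and nuclear receptors 4 were lower and 3 were higher, against 11.1% and 10.9% of all genes. The falls were *Mc5r*, a melanocortin receptor, at 343 and 335 FPKM at P30 and 6.72 and 34.8 FPKM at P56 (log2 change -4.35 ± 0.57 SE, adjusted p = 0.000634), and *Prlr*, *Lepr* and *Pparg*, the receptors for prolactin and leptin and a regulator of fat cells. *Pparg* fell with 4 other adipocyte genes of 13 tested, while 3 rose.

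Of 18 circadian clock genes 3 were higher and 0 were lower (median 0.41), against 10.9% and 11.1% of all genes. *Nr1d1*, a repressor of the clock's positive arm, was at 13.3 and 22.03 FPKM at P30 and 274 and 165 FPKM at P56 (log2 change 3.55 ± 0.38 SE, adjusted p = 0.000247), and *Nr1d2* and *Dbp* rose with it, by 2.08 and 1.52. No source used here gives the time of day of collection.

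Papilla cells seldom divide. Of 26 mitosis genes 0 were higher and 1, *Ccnb1*, was lower (median 0.02). In the nevus papilla 17 of the 26 were lower with age (median -1.41), and in the averaged age effect 6 were lower. Of 36 DNA replication genes 1, *Pole2*, was higher, while 4 were lower in the nevus papilla. The *Ccnb1* change was -0.78 without P56 replicate 2, and that of *Pole2* was 0.66 without P56 replicate 1, both short of the fold threshold. Among 18 cell cycle inhibitors, 2 rose and 2 fell, near the shares of 10.9% and 11.1% over all genes. *Cdkn1a*, which encodes p21, rose from 155 and 122 FPKM to 1323 and 869.6 FPKM (log2 change 2.96 ± 0.30 SE, adjusted p = 0.000177), and *Cdkn1c*, which encodes p57, fell from 87.8 and 85.8 FPKM to 24.9 and 27.9 FPKM (log2 change -1.68 ± 0.19 SE, adjusted p = 0.000325). Ribosome biogenesis genes were higher in 6 of 23 cases, *Myc* included, and lower in 0. Glycolysis genes were higher in 3 of 20 cases and respiratory chain genes in 1 of 27, against 10.9% of all genes. Cholesterol synthesis genes were lower in 3 of 20 cases, against 11.1% of all genes. The falls were led by *Tm7sf2* at 38.1 and 24.6 FPKM at P30 and 4.28 and 5.23 FPKM at P56.

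The 15 largest rises and 15 largest falls held further genes outside these groups. *Gatm* was at 1.02 and 0.09 FPKM at P30 and at 217 and 122 FPKM at P56, the largest rise (log2 change 6.78 ± 0.39 SE, adjusted p = 1.91e-05). *Gatm* encodes the first enzyme of creatine synthesis. *Npy*, neuropeptide Y, was at 4.59 and 0.34 FPKM at P30 and 499 and 144 FPKM at P56 (log2 change 6.62 ± 0.67 SE, adjusted p = 0.000178), and the cytochrome P450 gene *Cyp2f2* at 1.34 and 0.48 FPKM at P30 and 179.7 and 175 FPKM at P56 (log2 change 6.58 ± 0.27 SE, adjusted p = 5.11e-06). *C4b*, complement component 4B, rose from 2.2 and 0.02 FPKM to 208 and 70.1 FPKM (log2 change 6.08 ± 0.57 SE, adjusted p = 0.000117), and *Fcgr2b*, an Fc receptor, from 4.04 and 0.26 to 281 and 73.9 FPKM. *S100a4* was the most abundant of the risers at 59.3 and 15.9 FPKM at P30 and 2536 and 989 FPKM at P56 (log2 change 5.63 ± 0.56 SE, adjusted p = 0.000152). *Pcolce2*, *Art3* and *Mybpc1*, the last a muscle gene, were also among the 15.

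Of the falls, *Lrrtm3* was at 127 and 123 FPKM at P30 and at 1.74 and 5.65 FPKM at P56 (log2 change -4.88 ± 0.35 SE, adjusted p = 4.00e-05). *Lrrtm3* and *Cntn1*, which both encode neuronal adhesion proteins, and *Kcnip4* and *Scn4b*, which encode channel subunits, were lower in both P56 libraries. *Cntn1* was at 89.98 and 215 FPKM at P30 and 1.67 and 17.7 FPKM at P56, *Kcnip4* at 16.3 and 39.5 FPKM at P30 and 0 and 0.15 FPKM at P56 and *Scn4b* at 52.1 and 41.4 FPKM at P30 and 0.12 and 3.4 FPKM at P56. The transcriptional cofactor gene *Cited4* was at 224 and 182 FPKM at P30 and 6.6 and 8.25 FPKM at P56 (log2 change -4.60 ± 0.28 SE, adjusted p = 2.42e-05). *Lypd1*, *Wdr86* and *Olfm2* had log2 changes of -4.58, -4.34 and -4.18. *Olfm2* was at 167 and 179 FPKM at P30 and 0.86 and 48.6 FPKM at P56 and lost its call without P30 replicate 1 (adjusted p = 0.0703) or P30 replicate 2 (adjusted p = 0.0781), and without P56 replicate 1 its change was -1.81 (adjusted p = 0.00145).

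In the nevus papilla the same fit called 647 genes (5.32%), of which 489 were higher at P56 (4.02%) and 158 were lower (1.3%), and the difference between the 2 age effects, nevus minus wild type, was called for 1692 genes (13.9%), 1002 positive (8.24%) and 690 negative (5.68%). Sex ran in opposite directions in the 2 genotypes, and mutant skin also held growing follicles at P56. This difference therefore cannot be told apart from an effect of sex or of hair cycle state. Of the 1328 genes that rose in wild type mice 573 had a called negative difference, and of the 1355 that fell 655 had a called positive one. These genes were picked by their wild type change, which enters the difference with the opposite sign. Both counts are therefore partly set by that choice. The calls shared in direction were 197 higher genes, 14.8% of the wild type list and 40.3% of the nevus list, and 35 lower genes, 2.58% and 22.2% of the lists. A further 96 genes were lower in wild type mice and higher in nevus mice, and 13 the reverse.

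*Corin* was at 82.8 and 88.4 FPKM at P30 and 129 and 108 FPKM at P56 in the nevus papilla and was not called there, and the difference between the age effects was 7.14 (adjusted p = 0.000362). *Rspo4* was at 148 and 136 FPKM at P30 and 395 and 755 FPKM at P56 there and was not called, with a difference of 7.34 (adjusted p = 0.00241). *Crym*, *Hal* and *Aldh1a7* had the largest positive differences. *Crym* was at 54.5 and 169 FPKM at P30 and at 7.83 and 4.23 FPKM at P56 in wild type mice. In nevus mice it was at 1.73 and 1.67 FPKM at P30 and 32.4 and 60.9 FPKM at P56. Of the 11 BMP targets 8 had a positive difference and 0 a negative one. *Lef1* and *Bmp4* had differences of 1.59 and 1.66 (adjusted p = 0.0155 and 0.0497), while *Wif1*, *Hhip*, *Vcan*, *Fgf7* and *Bmp6* had none that was called.

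Markers of other cells differed likewise. *Mbp* was at 2.61 and 3.27 FPKM at P30 and 1.1 and 1.79 FPKM at P56 in the nevus papilla (difference -6.89, adjusted p = 6.77e-05), and 9 of 13 Schwann and nerve markers and 12 of 24 sheath and muscle markers had a negative difference. *Gatm* and *Npy* had the largest negative differences, -7.55 and -7.32. Fibroblast markers, by contrast, were higher with age in both genotypes, in 13 and 14 of 20 cases, and 2 had a negative difference and 2 a positive one. Of 23 chemokines and cytokines 13 rose in wild type and 12 in nevus papilla. *Nras* itself was at 30.6 and 28.2 FPKM at P30 and 51.1 and 41.9 FPKM at P56 in wild type mice and was not called (log2 change 0.64 ± 0.20 SE, adjusted p = 0.0408). In nevus papilla it was at 19.7 and 23.99 FPKM at P30 and 25.2 and 23.6 FPKM at P56.

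**Figure D5:**
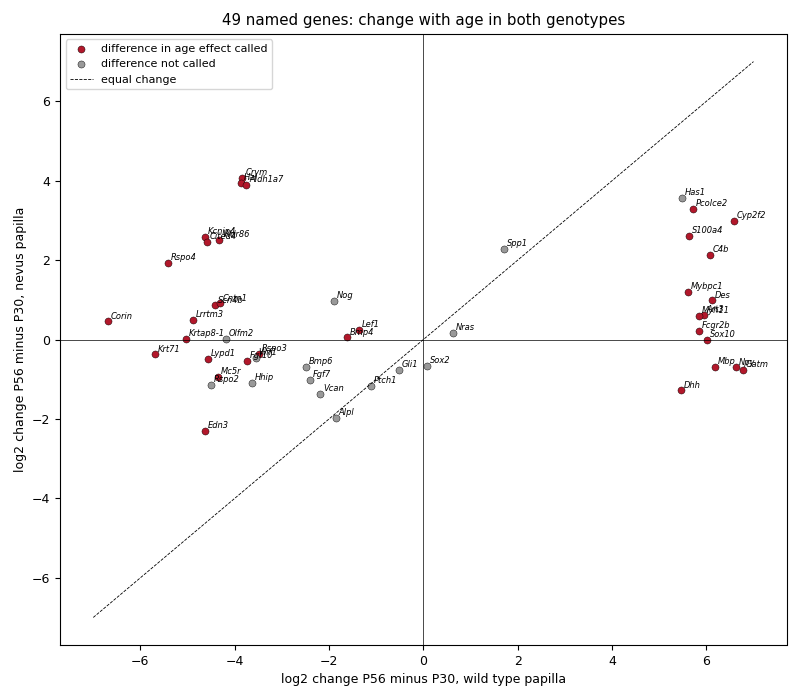
Log2 change from P30 to P56 of 49 named genes in wild type papilla (x axis) and nevus papilla (y axis), with red points where the difference between the 2 changes was called and a dashed line of equal change. Points lie along the horizontal axis for *Corin*, *Krt71* and *Sox10*, near the dashed line for *Alpl*, *Ptch1* and *Spp1*, and above zero on the left for *Crym*, *Hal*, *Aldh1a7* and *Rspo4*.

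Other wild type cell types of the same ages, each fitted on its own table, gave 18.7% of genes called in bulge stem cells, 27.5% in melanocytes, 14.1% in myeloid cells and 10.5% in CD45+ cells, against 22.1% in the papilla. *Krt71* fell in bulge cells too, from a mean of 299.8 to 1.92 FPKM, and in melanocytes from 38.1 to 3.82 FPKM. *Mbp* rose in melanocytes, from 2.04 to 21.1 FPKM. *Wif1*, which fell in the papilla, rose in bulge cells from 1.56 to 14.7 FPKM and in melanocytes from 2.88 to 24.4 FPKM. *S100a4* rose in bulge cells from 45.7 to 4967 FPKM. *Spp1* fell in melanocytes from 62.2 to 19.2 FPKM and in myeloid cells from 228 to 19.4 FPKM. Sex differed between the ages in bulge cells in the same way as in the papilla. In CD45+ cells both *Xist* (14.5 and 14 FPKM) and *Ddx3y* (5.67 and 5.21 FPKM) were present at P30, while at P56 *Xist* was at 23.2 and 24.6 FPKM and *Ddx3y* at 0 in both libraries.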

How the data were processed

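Per the labels, total RNA of dorsal skin cells was sequenced. The authors prepared Smart-seq2 libraries, aligned reads with STAR (2.4.2 in the submitters' processing notes, build mm10) and deposited gene-level FPKM from RSEM, which carry no counts. The edgeR test that the authors ran on counts was therefore replaced by limma 3.58.1 in R 4.3.3 on log2(FPKM + 1), with 8 papilla libraries, a mean for each of 4 groups, a variance trend and Benjamini-Hochberg adjustment over 12155 genes. The fit was tested on simulated data. Other cell types were fitted in their own tables. Gene types and positions came from GENCODE annotation, and 406 X and 6 Y genes were left out. Named were the 15 largest called rises and 15 falls with no overlap and a mean of at least 5 FPKM at the age where they are higher, the 5 largest differences each way, a set of known papilla genes, and members of 49 lists beside the list counts. *Mki67*, one of that set, was not analysed here, and some named genes are not reported here. The genes and lists were chosen with earlier results of these data known. Alternatives were another pseudocount, filters, scalings, sample sets, a replicate block and leaving out each library.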

Additional observations from a re-analysis of the deposited data

Results flagged for a closer look

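The age effect differed between nevus and wild type papilla by limma's test of the difference (adjusted p under 0.05) for the 34 named genes below. Values in brackets are the nevus change minus the wild type change on the log2(FPKM + 1) scale, with 2 libraries per group. It was positive for *Corin* (7.14), *Krt71* (5.32), *Rspo4* (7.34), *Krtap8-1* (5.05), *Lrrtm3* (5.37), *Edn3* (2.34), *Kcnip4* (7.21), *Cited4* (7.06), *Lypd1* (4.1), *Scn4b* (5.28), *Mc5r* (3.41), *Wdr86* (6.85), *Cntn1* (5.22), *Lef1* (1.59), *Rspo3* (3.12), *Fgf10* (3.2), *Bmp4* (1.66), *Crym* (7.91), *Hal* (7.82) and *Aldh1a7* (7.64). It was negative for *Gatm* (-7.55), *Npy* (-7.32), *Cyp2f2* (-3.59), *Mbp* (-6.89), *Des* (-5.13), *C4b* (-3.95), *Sox10* (-6.02), *Art3* (-5.33), *Fcgr2b* (-5.64), *Myh11* (-5.25), *Pcolce2* (-2.43), *S100a4* (-3.03), *Mybpc1* (-4.41) and *Dhh* (-6.74). In the nevus papilla the sexes of the 2 ages were the reverse of those in wild type mice, and mutant skin held growing follicles at P56. The difference cannot be told apart from sex or from hair cycle state. The genes were mostly named for a large wild type change, which itself enters the difference.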

How the results depend on the processing

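The 2683 calls of wild type P56 against P30 changed in number with the age effect averaged over both genotypes, an alternative chosen after seeing the data, which gave 1245 calls, 853 higher and 392 lower. In that average *Crym*, *Hal* and *Aldh1a7* had changes of 0.119, 0.0322 and 0.0679, the opposite sign to wild type. *Lef1* (-0.56), *Bmp4* (-0.78), *Bmp6* (-1.59), *Wif1* (-2.01), *Hhip* (-2.37), *Wdr86* (-0.91) and *Olfm2* (-2.08) were no longer called in it, and *Alpl* (-1.92) was. With no minimum fold change 2111 genes were lower. Leaving out 1 library at a time gave 2058 to 3082 calls, 1008 to 1484 of them higher and 1003 to 1598 lower. For genes named by rank or as known papilla genes, the calls that depended on 1 library are given in the results. For other list members named above they are not all given. Without P56 replicate 1, for example, the changes of *Tcf7*, *Pdgfra* and *Tgfb3* were 0.69, -0.54 and -0.51, short of the fold threshold. The fit with the replicate number as a block gave 2657 calls and changed no named call. Same-numbered libraries did not deviate together (correlations -0.0964 to 0.111). This gives no sign that the numbers mark pairs, but it cannot exclude a shared preparation. A pseudocount of 0.1, no filter, a mean of 5 FPKM or more, median-of-ratios or upper-quartile scaling, the 4 wild type libraries alone, no variance trend, and lncRNAs with X and Y genes gave 1909 to 2968 calls. The difference between genotypes gave 1488 to 1692 calls. FPKM hold no read depth, so counting error is unknown, and with 2 libraries per group the errors rest on 4 residual degrees of freedom.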
